A study of Mus musculus with 4 samples.

Results

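The AP-1 family and Csrnp1 were followed in mouse peritoneal macrophages exposed to fatty acids. The 10 genes were listed by name (Jun, Junb, Jund, Fos, Fosb, Fosl1, Fosl2, Maff, Mafk and Csrnp1), out of 19938 genes with a probe of their own, and the list was chosen by the values of these same arrays, in which Jun and Csrnp1 were among the highest genes with palmitic acid. All values below are therefore a description. The macrophages, elicited by 1 mL of 4% thioglycolate in the peritoneum 3 days before harvest, came from wild type C57BL/6 mice of 8 to 12 weeks, and cells that did not adhere were washed away. They were kept for 6 h with 500 µM palmitic acid (16 carbons, 0 double bonds), 500 µM oleic acid (18 carbons, 1 double bond) or 500 µM linoleic acid (18 carbons, 2 double bonds), each complexed with bovine serum albumin (BSA), or with 0 µM fatty acid. The control is labelled as BSA alone, whereas its protocol describes an ethanol and KOH vehicle. Each group was 1 Affymetrix array of RNA pooled from 3 samples, and whether these came from separate mice is not given. With 1 array per group no difference has a replicate check, an interval or a p-value.

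AP-1 is a dimer of basic leucine zipper (bZIP) proteins that binds short DNA sites and drives genes of inflammation, migration and stress. JUN proteins pair with each other or with FOS proteins, while FOS proteins need a JUN partner. The small MAF proteins MAFF and MAFK lack a transactivation domain and act through partners such as NRF2 or BACH1. CSRNP1 is a nuclear protein with a cysteine and serine rich region, and unlike the others is not a bZIP protein. In macrophages many of these genes are immediate early genes, whose transcripts appear soon after a stimulus and decay quickly.

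Values are log2 RMA values, and each of the 10 genes was read by 1 probe set. Genes whose brightest array fell short of the median of all values, log2 7.09, were left out, and a gene that reached it was kept, which 11174 genes and 9 of the 10 members did. Fosb was the member left out. Fos reached that level only with palmitic and oleic acid, so that it was kept through the arrays in which it was higher. Levels of different probe sets are not compared, and the probe sets of related genes can take up each other's transcripts. A 1.5-fold difference (0.585 in log2) is the size counted throughout. The median of each array lay between log2 7.07 and 7.13. Over the kept genes the robust SD of the differences was 0.194 for palmitic acid minus control, 0.116 for oleic acid minus control and 0.110 for linoleic acid minus control.

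The labelled cell type was checked on its markers. Of 13 measured macrophage markers 12 were kept, with Cd68 between log2 13.63 and 13.69 and Adgre1, the F4/80 antigen gene, between 12.83 and 13.00. The tissue macrophage gene Cd163 stayed at or below 5.98, whereas Mrc1 (10.47 to 10.74), Gata6 (8.53 to 8.98) and Timd4 (6.94 to 7.25) of the same list were kept. The Fc receptor gene Fcgr1 was at -0.66 with palmitic and 0.65 with oleic acid against the control. Most defining markers of B cells, T cells, neutrophils, mast cells, eosinophils and dendritic cells lay below the median of all values on every array, among them Cd79a, Cd3d, Ly6g, Cpa3, Epx and Flt3. The exceptions were Cd79b, Cd3e, S100a8, Mmp8, Siglecf and Zbtb46, and none of these differed by 1.5-fold from the control. Of 11 fibroblast and mesothelial markers 8 were kept, and all 8 were lower with palmitic acid than on each other array. The largest differences from the control were Pdgfrb at -1.29 and Pdgfra at -0.86. The other kept markers lay between -0.28 (Col3a1) and -0.15 (Msln), beside a robust SD of 0.194 over all kept genes. Pdgfrb was also lower with oleic acid, at -0.71 against the control, and linoleic minus oleic acid was 0.87. The summed level of all 11 was log2 12.05 with palmitic acid, beside 12.46 in the control, 12.33 with oleic and 12.55 with linoleic acid. Of the 11, Lum (3.76 to 4.01), Krt19 and Upk3b lay below the median of all values on every array. The part of this shift in the differences below was not tested. In pooled bulk RNA, fewer cells of a type and less RNA per cell cannot be told apart.

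**Figure D1:**
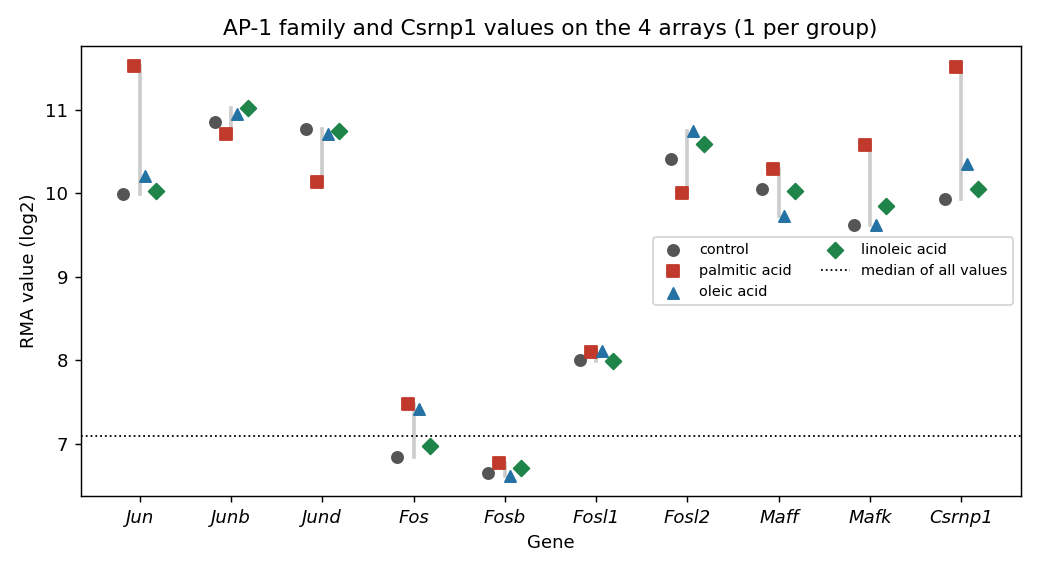
RMA value (log2) of the 10 genes on the 4 arrays, 1 point per array, with grey bars from the lowest to the highest value and a dotted line at the median of all values. Jun, Mafk and Csrnp1 stood out upward with palmitic acid, Jund lay lowest with palmitic acid, and Fos was high with palmitic and oleic acid.

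The 3 JUN genes went apart with palmitic acid. Jun, the gene of the founding AP-1 subunit and a main target of the kinase JNK, was at log2 11.52 with palmitic acid, beside 9.99 in the control, 10.20 with oleic and 10.02 with linoleic acid. Palmitic acid alone stood apart, and the other 3 arrays lay within 0.21 of each other. The difference from the control was 1.53, or 2.88-fold, which ranked 4 of 11174 kept genes. Jund, whose protein is a constitutive AP-1 subunit often opposed to JUN in growth control, was at 10.14 with palmitic acid, beside 10.77 in the control, 10.71 with oleic and 10.74 with linoleic acid. It was lowest with palmitic acid, by 0.64 against the control (1.55-fold), and its other 3 arrays lay within 0.06. Junb, a weaker activator induced by cytokines, was at 10.71 with palmitic acid, beside 10.85 in the control, 10.95 with oleic and 11.02 with linoleic acid. Its 4 values spanned 0.31 and none of its differences reached 1.5-fold. The level of Jun relative to Jund was thus 2.16 log2 units higher with palmitic acid than in the control, beside 0.27 with oleic and 0.06 with linoleic acid.

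Csrnp1 had the same order of groups as Jun. It was at log2 11.51 with palmitic acid, beside 9.93 in the control, 10.35 with oleic and 10.05 with linoleic acid. Palmitic acid was again far above the rest, and oleic acid was the next highest. The palmitic acid difference of 1.59, or 3.01-fold, ranked 3 of 11174. The oleic acid difference of 0.43 (1.35-fold) ranked 114 in its comparison, and the linoleic acid difference was 0.13. Its relative Csrnp2 lay near the control with all fatty acids, at 0.03, -0.08 and 0.02. Csrnp3 was below the median of all values on every array. Axin1, a WNT pathway scaffold whose product was first reported to raise Csrnp1, differed from the control by at most 0.13.

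Among the FOS genes, Fos was at similar levels on the palmitic and oleic acid arrays, and Fosl2 lay on opposite sides of the control in them. Fos, an immediate early gene whose protein cannot bind DNA without a JUN partner, was dim, at log2 7.48 with palmitic acid, beside 6.84 in the control, 7.42 with oleic and 6.97 with linoleic acid. Palmitic and oleic acid lay 0.06 apart and above the other 2 arrays. The differences from the control were 0.64 and 0.58, which fall on either side of the 1.5-fold line, and with values under the median of all values set to that median they were 0.39 and 0.32. Fosl2, which codes for the FOS-related subunit FRA-2, was at 10.01 with palmitic acid, beside 10.41 in the control, 10.74 with oleic and 10.59 with linoleic acid. It was lower than the control with palmitic acid (-0.41) and higher with oleic acid (0.33), and these 2 arrays differed by 0.73, or 1.66-fold. Fosl1, the gene of FRA-1, kept within 0.12 across the arrays, between 7.99 and 8.11. Fosb lay between 6.62 and 6.77, below the level at which genes were kept.

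Among the small MAF genes the largest differences were those of Mafk, and Mafk, Maff and Mafg were all higher with palmitic than oleic acid. Mafk was at log2 10.58 with palmitic acid, beside 9.62 in the control, 9.62 with oleic and 9.85 with linoleic acid. Palmitic acid was highest, linoleic acid next, and the control and oleic acid were at the same level. The palmitic acid difference of 0.95 (1.93-fold) ranked 54 of 11174. Maff was at 10.05, 10.29, 9.73 and 10.02 in the order control, palmitic, oleic and linoleic acid. It was highest with palmitic and lowest with oleic acid, and those arrays differed by 0.56, just under 1.5-fold. Mafg, another small MAF gene, had the same order of palmitic and oleic acid, at 10.47 and 9.87 beside 10.12 in the control. Its palmitic and oleic acid arrays differed by 0.60, just over 1.5-fold.

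**Figure D2:**
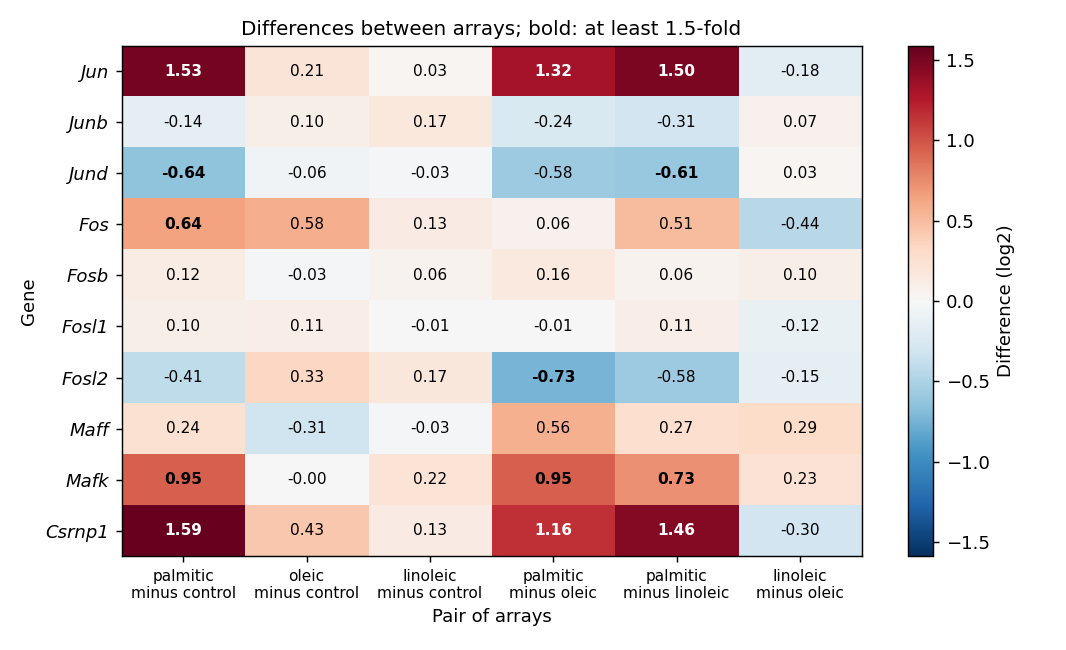
Difference in log2 value for each of the 10 genes (rows) in each of the 6 pairs of arrays (columns), coloured from blue (lower) to red (higher). Bold values, at least 1.5-fold, occur only in columns with palmitic acid, and the largest is 1.59 for Csrnp1.

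Counted over the 9 kept members, 4 were higher by 1.5-fold or more in palmitic acid minus control, namely Jun, Csrnp1, Mafk and Fos, where 2.17% of all kept genes were. Jund was 1 member at least 1.5-fold lower, against 1.41% of kept genes. The members were listed with this comparison known, so nothing is read from these shares. The median difference of the 9 was 0.24, with 0.00059 for all kept genes. In oleic acid minus control 0 of 9 were at least 1.5-fold higher (0.376% of kept genes) and 0 lower (0.34%). The largest was Fos at 0.58, followed by Csrnp1 at 0.43, and the median was 0.11. In linoleic acid minus control 0 of 9 were beyond 1.5-fold either way (0.0358% of kept genes in each direction). The largest was Mafk at 0.22, and the median was 0.13 beside 0.04 for all kept genes. These 3 comparisons share the control array.

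The fatty acids were next compared with each other at the same concentration and time, in 3 pairs. Palmitic acid exceeded oleic acid by at least 1.5-fold at Jun (1.32), Csrnp1 (1.16) and Mafk (0.95), 3 of 9 members where 1.82% of kept genes were. Fosl2 (-0.73) was 1 member lower, against 1.66%, and Jund lay just short of the line at -0.58. Palmitic acid exceeded linoleic acid at Jun (2.82-fold), Csrnp1 (2.75-fold) and Mafk (1.66-fold), again 3 members, against 1.58% of kept genes. Jund (-0.61) was lower, against 2.01%, and Fosl2 lay just short of the line at -0.58. Linoleic and oleic acid, of equal chain length, differed by less than 1.5-fold at all 9 members, where 0.707% of kept genes were higher and 0.34% lower. The largest of these differences was Fos, lower with linoleic acid by 0.44. Palmitic acid differs from the others in chain length and in saturation, so that these features cannot be told apart. No interval can be given, and a difference below 1.5-fold does not show that 2 fatty acids act alike.

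Across all 4 arrays palmitic acid gave the highest value at 5 kept members (Jun, Fos, Maff, Mafk and Csrnp1), where it was highest at 30.5% of kept genes, and the lowest at 3 (Junb, Jund and Fosl2), where it was lowest at 38.1%. It exceeded each other array by at least 1.5-fold at Jun, Mafk and Csrnp1, as it did at 105 genes in all, or 0.94%. At 0 members was it lower than each other array by that much, beside 0.796% of kept genes. The nearest was Jund at -0.58.

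**Figure D3:**
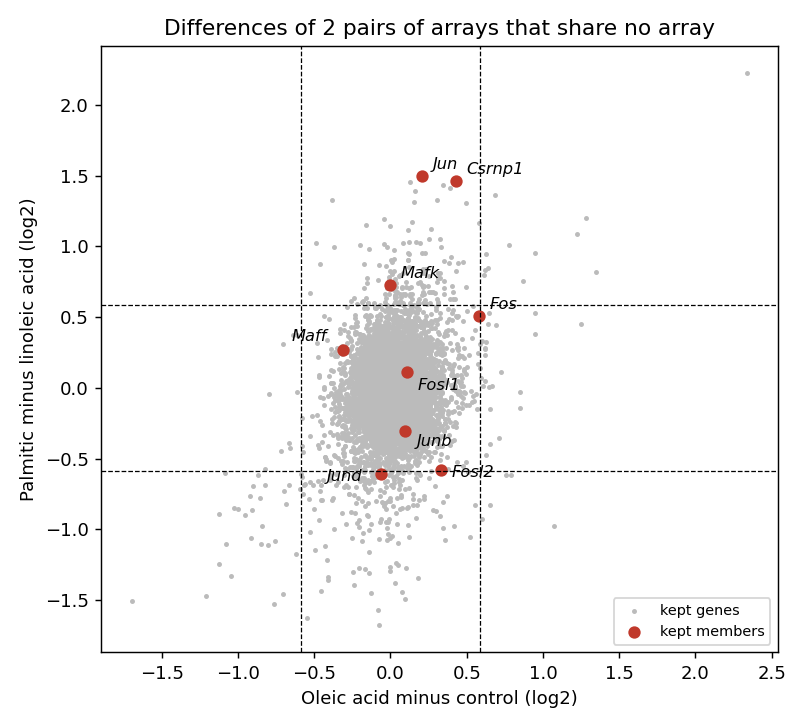
Palmitic acid minus linoleic acid (y axis, log2) against oleic acid minus control (x axis, log2) for all kept genes (grey) and the 9 kept members (red). Dashed lines mark 1.5-fold, and the 2 differences share no array. Jun, Csrnp1 and Mafk lie above the upper line, Fos lies to the right at 0.58 and 0.51, and Fosl2 lies to the right and below at 0.33 and -0.58.

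The promoters of Jun, Csrnp1 and Maff are shown because these were the members in which letters of a known AP-1 or CRE type site were found. Sequences of 300 bases, 250 before and 50 after each annotated start, were taken from RefSeq (GRCm38.p6) for 9 of the 10 members, with 3 starts for Maff and 4 for Csrnp1. For Fosl1 none was used. They were searched on both strands for the AP-1 site TGAGTCA or TGACTCA (the same site on the other strand), the cAMP response element (CRE) TGACGTCA, the related TGACATCA, the MEF2-type site (the capitals nearest the start in the Jun sequence), the CArG box and the CCAAT box. The sites do not overlap each other in the windows shown. The stretches before the start follow, with matches in capitals. Jun is at chr4:95052223-95052472 on the minus strand, start 4 of Csrnp1 at chr9:119983024-119983273 on the minus strand, and starts 2 and 3 of Maff at chr15:79347420-79347519 and chr15:79348302-79348401 on the plus strand.
Jun: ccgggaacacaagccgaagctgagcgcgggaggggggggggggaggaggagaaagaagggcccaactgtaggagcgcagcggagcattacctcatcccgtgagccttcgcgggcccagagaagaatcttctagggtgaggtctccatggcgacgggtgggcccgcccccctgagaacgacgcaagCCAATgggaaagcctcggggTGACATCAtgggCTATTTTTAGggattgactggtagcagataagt
Csrnp1 start 4: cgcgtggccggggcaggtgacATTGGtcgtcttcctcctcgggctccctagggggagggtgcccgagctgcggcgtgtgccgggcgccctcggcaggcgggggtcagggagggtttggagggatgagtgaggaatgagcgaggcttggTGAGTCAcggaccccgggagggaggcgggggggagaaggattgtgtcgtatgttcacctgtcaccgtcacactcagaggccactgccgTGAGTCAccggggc
Maff start 2: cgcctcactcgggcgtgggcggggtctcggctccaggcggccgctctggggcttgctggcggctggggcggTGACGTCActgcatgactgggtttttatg
Maff start 3: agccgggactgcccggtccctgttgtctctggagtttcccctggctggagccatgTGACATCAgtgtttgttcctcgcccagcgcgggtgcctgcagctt

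Csrnp1 was the 1 member with TGAGTCA, in 2 copies at -102 to -96 and -14 to -8 from start 4, and 5.2% of all 32851 windows hold at least 1. TGACATCA was found in Jun and Maff, in both at -45 to -38 from the start, and in 3.62% of all windows. The Jun window also held the MEF2-type site, at -33 to -24, which 0.11% of all windows hold, and a CCAAT box. The CRE was found in Maff, and in 1.79% of windows. A CArG box was found in 0 of the 9 members searched and in 1.63% of windows, and CCAAT in Jun, Junb and Csrnp1 and in 37.41%. Members were counted by gene over all their windows. By gene, TGAGTCA was held by 5.95% of 27025 genes, TGACATCA by 4.18% and the CRE by 2.03%. The MEF2-type site was held by 0.12%, the CArG box by 1.81% and CCAAT by 41.06%. The windows of Jund, Fos, Fosb, Fosl2 and Mafk held 0 of the 6. Sites more than 250 bases before the start, and variants with other letters, were not searched. A gene without a match here can therefore still have such sites. Among these exact strings Jun and Csrnp1 had only the CCAAT box in common, and Jun and Maff shared TGACATCA. The Csrnp1 matches all came from start 4. Whether any of these sites bears on the array values was not tested. A match is a run of letters and says nothing of binding.

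**Figure D4:**
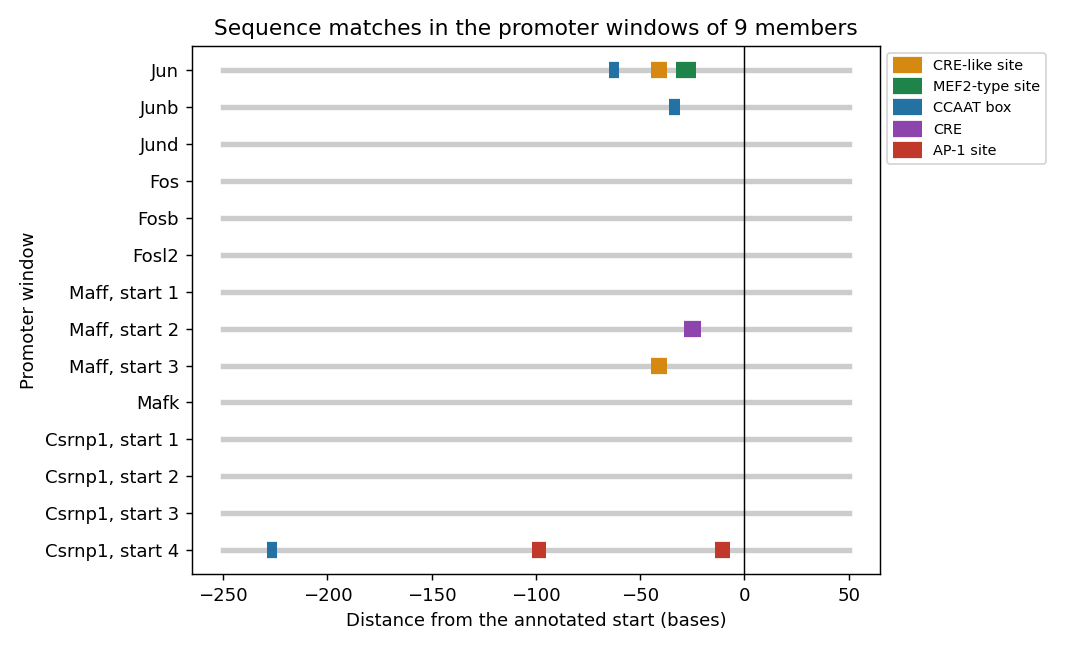
Position of the sequence matches relative to each annotated start (x axis, bases) in the 14 promoter windows of 9 members, 1 grey line per window. The matches lie in the windows of Jun, Junb, Maff and Csrnp1, and the other members have none.

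Genes with values most like a member were found by the root mean square distance over the 4 arrays, after each gene was centred on its own mean, among 10587 kept genes. Nearest to Jun were Rgcc (0.053), a cell cycle regulator gene, Rsbn1 (0.059), the zinc finger gene Plagl1 (0.075), the glutathione-degrading enzyme gene Chac1 (0.108) and the stress gene Sesn2 (0.117), with Csrnp1 itself at 0.080. Nearest to Csrnp1 were Rsbn1 (0.050), Rgcc (0.099), Armcx6 (0.112), Plagl1 (0.119) and Chac1 (0.138). The list of Mafk was different, with Dio2 (0.034), Ifrd1 (0.038), Ccn1 (0.040), the TLR adaptor gene Ticam1 (0.049) and Mtss1 (0.050). The distance of Mafk to Jun was 0.285. Nearest to Fos were Rnf144b (0.039), Noct (0.056), Spry2 (0.062), Egr1 (0.068) and Rhou (0.073), all higher with both palmitic and oleic acid. Egr1, another immediate early gene, was at 0.47 and 0.54 against the control. Jund lay nearest to Gpr141 (0.023), Nectin2 (0.024), Cd69 (0.038), Tnfaip8l3 (0.038) and Trim8 (0.040), and Fosl2 nearest to Stimate (0.0075), Abi3 (0.029), Lrrc25 (0.034), Dok2 (0.037) and Midn (0.048). With 4 arrays, such likeness can arise among many genes.

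The counts of the gene lists that follow stand beside the shares of all kept genes past 1.5-fold, which were 2.17% higher and 1.41% lower for palmitic acid minus control, 0.376% and 0.34% for oleic acid minus control, and 0.0358% each way for linoleic acid minus control. The lists were written with earlier results of these data known, and nothing particular to a list is read from its count. Of 13 kept genes of other bZIP proteins that can pair with the members, 0 were at least 1.5-fold higher and 1 lower with palmitic acid, with a median of -0.02. That 1 was Maf, the large MAF factor c-MAF, at log2 9.58 with palmitic acid, beside 10.71 in the control, 10.78 with oleic and 11.02 with linoleic acid. The palmitic acid array was lower by 1.13 against the control, and the linoleic acid array was higher by 0.31. Bach1, a repressor that pairs with small MAF proteins, was at 0.50, Atf3, a stress-induced repressor of AP-1 sites, at 0.49, Nfe2l2, the NRF2 gene, at -0.44 and Batf at -0.41. With oleic acid 0 of 13 were beyond 1.5-fold, the largest being Jdp2, a JUN dimerisation repressor, at 0.56. With linoleic acid 0 were, the largest being Batf2 at 0.37.

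Of 23 kept genes of the MAP kinase cascade, which lies above AP-1, 0 were beyond 1.5-fold in any of the 6 comparisons, a count near the 2.17% higher and 1.41% lower over all kept genes, and the median with palmitic acid was -0.01. The JNK genes Mapk8 and Mapk9 were at -0.04 and -0.09 with palmitic acid and the p38 gene Mapk14 at -0.04. The largest differences were Map3k5 (-0.50), which codes for ASK1, Map3k11 (-0.46), Map2k4 (0.44), which codes for a kinase of JNK, and Mapk8ip3 (0.36), beside a robust SD of 0.194 over all kept genes. Transcript levels say nothing of kinase activity. Among 10 genes of the dual specificity phosphatases that act on MAP kinases, 3 exceeded the control 1.5-fold with palmitic acid, Dusp10 (1.39), Dusp1 (0.95) and Dusp8 (0.66), and Dusp2 was lower (-0.71), where 2.17% of kept genes were higher and 1.41% lower. With oleic acid 4 were higher (0.376% of kept genes), Dusp1 (0.87), Dusp6 (0.79), Dusp10 (0.69) and Dusp5 (0.62), and with linoleic acid 0 were beyond 1.5-fold.

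Of 14 genes for factors that act on the Jun and Fos promoters, Mrtfb (0.70), a coactivator of SRF, was the 1 at least 1.5-fold higher with palmitic acid. Elk3, a partner of SRF, lay at -0.58 with palmitic and 0.38 with oleic acid, and these arrays differed by 0.96. Srf itself was at -0.13, and Mef2a and Mef2d at -0.03 and 0.27. Of 8 kept genes for the decay of JUN and FOS proteins or transcripts, 1 was at least 1.5-fold higher with palmitic acid, Zfp36l2 (0.75), an mRNA decay factor. Its relative Zfp36 was at 0.20 and the ubiquitin ligase genes Cop1 and Itch were at -0.26 and 0.05.

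Genes known as AP-1 targets differed from the control in both directions with palmitic acid. Of 29 kept, 4 were at least 1.5-fold higher (2.17% of kept genes) and 3 lower (1.41%), and the median was -0.02. The higher genes were Ccn2 (1.05), Hbegf (1.03), Ccn1 (0.97) and Plau (0.90), which code for 2 matricellular proteins, an EGF receptor ligand and the urokinase protease. The lower ones were the cytokine genes Csf2 (-1.52), Lif (-0.70) and Il6 (-0.59). Several other targets were already bright in the control. Of these Ptgs2 at log2 13.81, Tnf at 13.76 and Mmp12 at 13.51 differed by at most 0.09 with palmitic acid. Other bright targets differed more, with Sqstm1 (13.46 in the control) at 0.29, Emp1 (12.60) at 0.36 and Mt2 (12.53) at -0.54. With oleic and with linoleic acid 0 of 29 were beyond 1.5-fold, and the medians were 0.02 and 0.05. Hbegf, at 0.48, was the highest with oleic acid. In palmitic minus oleic acid 3 were higher (Ccn2, Ccn1 and Plau), where 1.82% of kept genes were. In the same pair 4 were lower (Csf2, Lif, the metallothionein gene Mt2 and the cyclin gene Ccnd1), against 1.66%. These higher and lower genes stood beside the lower fibroblast and mesothelial markers of the palmitic acid array (summed level log2 12.05 against 12.46 in the control), whose part in their differences was not tested.

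**Figure D5:**
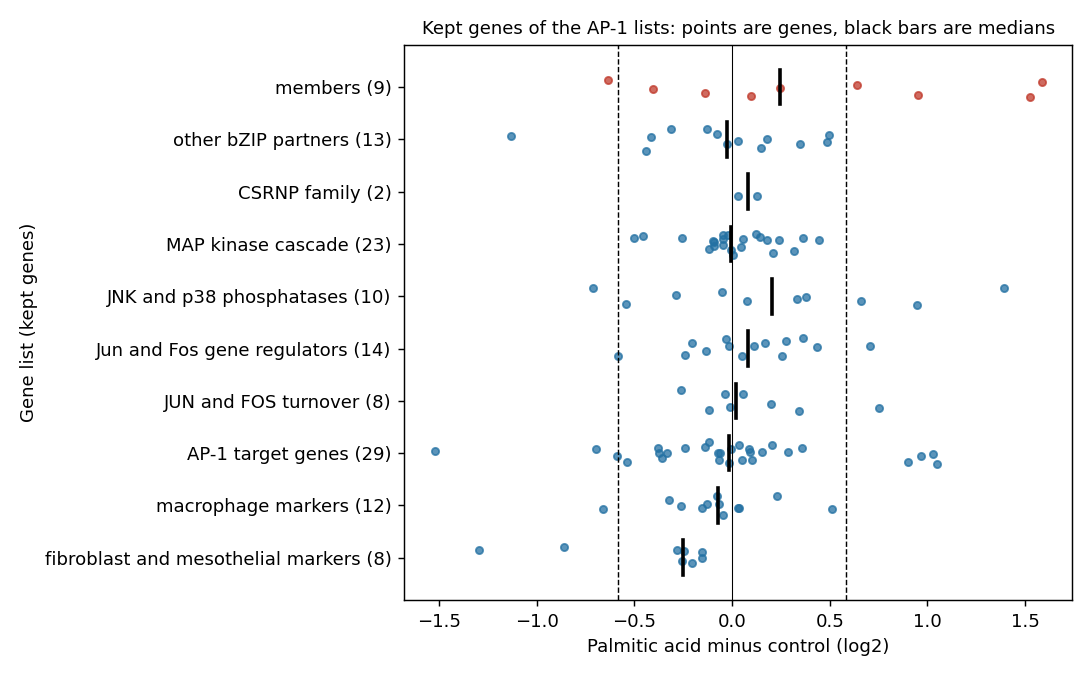
Palmitic acid minus control (x axis, log2) for the kept genes of each list (rows, number of genes in brackets), 1 point per gene, with the list median as a black bar and 1.5-fold as dashed lines. The medians of the lists lie between -0.25 (fibroblast and mesothelial markers) and 0.24 (members).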

How the data were processed

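Total RNA (100 ng) of 1 pool of 3 samples per group was labelled with biotin and read on 1 Affymetrix array, 4 arrays in all, per the labels' protocols. The deposited log2 values were made by the authors with RMA, per the submitters' processing notes, a method of background correction, quantile normalisation and probe summary. That they are log2 follows from their range (2.28 to 14.4). For the RMA version and the genome build nothing is stated in the sources used here. Of 35556 probes 21789 carried exactly 1 gene in the platform annotation, 1621 several and 12146 none, and no symbol differed from RefSeq (GRCm38.p6) where the Entrez ID was found (21698 probes).

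Probes of 1 gene were averaged, dim genes were left out, differences of log2 values were taken for 6 pairs of arrays, and genes past 1.5-fold were counted (Python 3.11.15, pandas 2.3.3, numpy 2.4.6). No test is possible with 1 array per group, and their number limits the precision. The counting was run on simulated arrays, with changes larger than the size counted and noise smaller than the spread of the real differences. That run checks the code alone and says nothing of the error of the counts. The members, the lists and the alternatives were chosen with earlier results of these data known. Named were all members, genes of the lists past 1.5-fold in any comparison or otherwise up to 4 with the largest palmitic acid difference, and the 5 nearest genes of each member past 1.5-fold, leaving out predicted genes, small RNAs, receptor clusters and pseudogenes. A few other genes of the lists, such as kinase and marker genes, are named for their role and were chosen after their values were seen.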

Additional observations from a re-analysis of the deposited data

Results flagged for a closer look

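Fosl2 was the 1 kept member whose differences from the control had opposite signs with palmitic acid (-0.41) and oleic acid (0.33), each beyond the robust SD of its comparison, and whose direct difference, palmitic minus oleic acid, was beyond 1.5-fold at -0.73. The difference was not tested, since each group is 1 array. Groups of 1 array allow no search for a sample far from the others.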

How the results depend on the processing

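The 10 members were read under 10 alternatives: centring each array on its median, a repeated quantile normalisation, a filter on each gene's mean, a stricter filter at the 75th percentile, no filter, the brightest probe, probes of several genes included, values under the median set to it, and 2-fold or 1.3-fold as the size counted. No paired analysis was possible because each group has 1 array, and for the same reason no replicate could be left out. Of 600 member values, 578 kept their side of the line, 13 came to lie beyond it and 9 short of it. The filters, the brightest probe and the probes of several genes left every member value as it was. These alternatives could therefore not move a value, and the 578 is no measure of stability. Only the 2 scalings, the raising of dim values and the other sizes counted could do so. Under the 2 scalings 5 values changed sign, all at most 0.03 in size: Jun in linoleic acid minus control and Jund in linoleic minus oleic acid under both, and Mafk in oleic acid minus control when centred. With palmitic acid against the control, Mafk ranged from 0.89 to 0.96 and Fos from 0.39 to 0.65, the lowest value coming from the alternative that raises dim values. With arrays centred, and after the repeated quantile normalisation, the members higher with oleic acid than the control were 1 (Fos at 0.60 in both) in place of 0, and those lower with palmitic than oleic acid were 2 (Jund and Fosl2) in place of 1. Members lower with palmitic than linoleic acid were 0 with arrays centred and 2 after quantile normalisation, in place of 1. In this pair Jund and Fosl2 lie too near the 1.5-fold line to be placed, as does Jund in palmitic minus oleic acid. Palmitic acid minus control ranged from -0.69 to -0.63 for Jund, and palmitic minus oleic acid from -0.79 to -0.73 for Fosl2. At 2-fold, 2 members were higher with palmitic acid than the control (Jun and Csrnp1) and 0 were lower, as were 0 against oleic and 0 against linoleic acid. At 1.3-fold, 2 members were lower with palmitic acid than the control, 2 than oleic acid and 2 than linoleic acid (Jund and Fosl2 in each), 2 were higher with oleic acid than the control (Fos and Csrnp1), and 1 was lower with linoleic than oleic acid (Fos). The filter at the 75th percentile kept 7 members, without Fos and Fosl1, and no filter kept 10. Over all kept genes the scaling moved the split of linoleic acid minus control from 4 higher and 4 lower to 2 and 7 when centred and 2 and 9 after quantile normalisation, and that of linoleic minus oleic acid from 79 and 38 to 60 and 55 and to 57 and 56. The larger side turned in palmitic minus linoleic acid when centred (177 and 225 to 212 and 187) and in palmitic minus oleic acid after quantile normalisation (203 and 185 to 162 and 219). Without the filter linoleic acid minus control had 20 and 9, with the stricter filter 3 and 1, and with probes of several genes 4 and 2. At 1.3-fold palmitic acid minus control had 713 higher and 435 lower genes, and at 2-fold 44 and 33, in place of 242 and 157.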

Other observations

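Of 8934 kept genes with a promoter window, 417 held the AP-1 site TGAGTCA. Of these 8 (1.92%) exceeded the control 1.5-fold with palmitic acid and 8 (1.92%) lower, beside 2.18% and 1.35% of the genes without it. TGACATCA was held by 195 genes, of which 8 (4.10%) were higher and 3 (1.54%) lower, beside 2.13% and 1.37% of the rest. The CRE was held by 313, with 11 higher (3.51%) and 5 lower (1.60%), beside 2.12% and 1.37% of the rest. The CArG box was held by 141, with 2.84% higher beside 2.16%, and CCAAT by 3688, with 2.20% higher beside 2.15%. Of 9 genes with the MEF2-type site, 1 was higher, namely Jun. Csrnp1 is among the higher genes with TGAGTCA and Jun among those with TGACATCA. Both were chosen with their palmitic acid values known. These are counts of letters in short windows, given as a description.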
